A study of Mus musculus with 9 samples.

Results

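The fibrillar collagens and the collagens that attach to their fibrils were followed in RNA from mouse femoral artery media, the wall layer built of smooth muscle. Members were the genes named Col1a1, Col1a2, Col3a1, Col5a1, Col5a2, Col5a3, Col11a1, Col12a1, Col14a1 and Col16a1, which are 10 of the 17093 genes listed in the deposited tables. All 10 had values in every library and passed the filter on low values in every comparison. The arteries came from C57BL/6 mice and formed 3 groups of 3 libraries. In the inhibitor-treated group, the mice had a wire injury and received VS-4718, an inhibitor of focal adhesion kinase (FAK), by oral gavage at 50 mg/kg in 2 doses a day until arteries were taken on day 14. In the injured group, arteries were taken on day 14 after the same wire injury without the inhibitor, and the sham group had a sham operation. Adventitia and fat were dissected off and the lumen was flushed with a lysis reagent to strip endothelial and immune cells. The labels name a citrate buffer as the vehicle and do not say whether sham mice were dosed, and they do not give the number of animals behind a library. The p-values below therefore measure only the spread between these libraries, which may be technical.

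Fibrillar collagens are made as procollagen chains that fold into a triple helix in the endoplasmic reticulum, lose their propeptides outside the cell and assemble into the fibrils that bear tension in the arterial wall. Types I and III form the bulk of these fibrils, types V and XI start them and limit their width, and the fibril-associated collagens XII, XIV and XVI sit on their surface. In arteries they are made mainly by smooth muscle cells and adventitial fibroblasts, and their deposition is part of the thickening that follows injury. FAK is a tyrosine kinase that integrins activate when cells attach to matrix.

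Each library held between 14676891 and 21248740 reads counted in genes. The 10 collagens took 0.822, 0.824 and 0.736% of the reads in the inhibitor-treated libraries, 3.45, 2.17 and 3.39% in the injured libraries and 0.884, 0.761 and 0.726% in the sham libraries, with 95% Wilson intervals of at most 0.00933 percentage points on either side (counting error only). The share was thus higher in every injured library than in any other. Injured replicate 2, sham replicate 3 and inhibitor replicate 3 stood apart by markers of other tissues, and their marker values are given with the cell type lists further on. Inhibitor replicate 2 was also high in skeletal muscle markers for its group, but is not counted among these 3. The contractile smooth muscle genes that define the tissue were present in every library, at a summed level of 681788 to 698811 in inhibitor-treated, 175139 to 203869 in injured and 593205 to 773663 in sham libraries. In RNA from whole tissue, fewer cells of a type and less RNA per cell cannot be told apart.

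The members lie on 8 chromosomes of the mouse genome (build GRCm38, GENCODE annotation, 1-based) and are all protein-coding genes with many exons. Col1a1 is at chr11:94936224-94953042, plus strand, and Col1a2 at chr6:4504814-4541544, plus strand. Col3a1 (chr1:45311538-45349706, plus strand) and Col5a2 (chr1:45374321-45503282, minus strand) are neighbours that point at each other across 24.6 kb. Col5a1 is at chr2:27886425-28039514, plus strand, Col5a3 at chr9:20770050-20815067, minus strand, and Col11a1 at chr3:114030540-114220718, plus strand. Col12a1 is at chr9:79598991-79718831, minus strand, Col14a1 at chr15:55307750-55520803, plus strand, and Col16a1 at chr4:130047840-130099283, plus strand. Exons of Col3a1 overlap those of Gm47302 on the same strand, and exons of Col5a1 overlap 2810430I11Rik and Gm13372 on the other strand. Whether reads were counted by strand is not given in the sources used here, so reads in those stretches could belong to either gene.

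Sequence upstream of the start was held in the RefSeq promoter table (GRCm38.p6) for 6 of the 10 members. The 250 bases before the start are shown for the pair of genes whose levels differed most between groups (Col5a3 and Col11a1), for the type V chain that differed least (Col5a1) and for the type III chain Col3a1. The motifs searched, on both strands, were TATAAA, the core of many promoters, and CCAAT, which NF-Y binds. Sp factors bind the GC box, which was searched as GGGCGG. TEAD factors bind the MCAT motif, which was searched as CATTCC, and the CArG box is the site of serum response factor. Capitals mark every match, written as it reads on the strand shown.
Col11a1: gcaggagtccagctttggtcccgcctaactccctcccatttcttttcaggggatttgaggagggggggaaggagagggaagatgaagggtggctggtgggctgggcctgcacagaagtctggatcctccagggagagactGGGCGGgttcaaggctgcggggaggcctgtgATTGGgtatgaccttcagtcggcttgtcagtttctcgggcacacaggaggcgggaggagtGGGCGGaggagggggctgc
Col5a3: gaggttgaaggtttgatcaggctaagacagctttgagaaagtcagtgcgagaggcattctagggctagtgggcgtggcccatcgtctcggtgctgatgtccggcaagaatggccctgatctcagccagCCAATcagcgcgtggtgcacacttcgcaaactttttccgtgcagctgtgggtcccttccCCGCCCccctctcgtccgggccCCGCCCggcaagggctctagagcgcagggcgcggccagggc
Col5a1: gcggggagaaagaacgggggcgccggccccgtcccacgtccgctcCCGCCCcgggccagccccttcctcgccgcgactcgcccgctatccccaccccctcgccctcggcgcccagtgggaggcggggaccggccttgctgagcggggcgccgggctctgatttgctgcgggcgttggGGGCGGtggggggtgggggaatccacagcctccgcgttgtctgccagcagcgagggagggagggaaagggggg
Col3a1: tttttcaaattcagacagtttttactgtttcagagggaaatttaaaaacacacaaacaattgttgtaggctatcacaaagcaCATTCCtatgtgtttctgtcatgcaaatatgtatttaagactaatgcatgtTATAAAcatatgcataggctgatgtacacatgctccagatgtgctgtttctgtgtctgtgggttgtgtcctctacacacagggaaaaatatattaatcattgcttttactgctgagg

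The Col11a1 stretch is chr3:114030290-114030539 on the plus strand, with 62.4% G and C, a CCAAT box read on the other strand and 2 GC boxes. Col5a3 is shown from chr9:20815068-20815317 on the minus strand, with 62.8% G and C, 1 CCAAT box and 2 GC boxes read on the other strand. Col5a1 is shown from chr2:27886175-27886424 on the plus strand, with 76.4% G and C and 2 GC boxes, 1 on each strand. The Col3a1 stretch, chr1:45311288-45311537 on the plus strand, differs in base composition from those of the other 3: it has 35.2% G and C, no GC box, 1 TATA box and 1 MCAT motif. Over the 6 members with a sequence, a GC box was found in 5 and a CCAAT box in 4, against 32.7% and 33.8% of all 32851 promoter stretches of that length. The 5 stretches with a GC box had 62.0 to 76.4% G and C, against a median of 52.4% over all stretches. A TATA box and an MCAT motif were each found in 1 of 6, against 12.4% and 12.6% of all stretches, and a CArG box in 0 of 6, against 1.47%. No match of 1 motif overlapped a match of another. The stretch of Col1a2 overlaps annotated Col1a2 exons and that of Col16a1 overlaps an exon of Gm12963, so these are not shown. Both are included in the counts, each with a GC box and a CCAAT box. The matches describe letters only.

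The values below are normalised read counts, scaled once over all 9 libraries, and they are listed for replicates 1, 2 and 3 of each group. Per kilobase of transcript, the type I and type III chains were the most abundant members in every group. In the inhibitor-treated arteries Col1a2 came first at 9439.7 ± 598 per kb (mean ± SD, n = 3), then Col3a1 at 8717 ± 771 and Col1a1 at 5179 ± 571. In the injured arteries the same 3 chains stood at 31445 ± 9386, 31955 ± 8559 and 20121 ± 5889.6 per kb, and in the sham arteries at 9863 ± 888, 8295 ± 1125 and 4823 ± 544. The ranges of Col1a2 and Col3a1 overlapped in all groups, and in the injured arteries the range of Col1a1 overlapped both. Below them, Col5a1, Col5a2 and Col14a1 averaged 1037 ± 60.0, 889 ± 35.2 and 762 ± 36.2 per kb in inhibitor-treated arteries, without overlap, and 995 ± 80.7, 909 ± 69.8 and 895 ± 63.0 in sham arteries, where their ranges overlapped. In injured arteries Col5a2 (2214 ± 621 per kb) averaged above Col5a1 (1765 ± 362) and Col14a1 (1594 ± 509.6), with overlapping ranges. Col16a1, Col12a1 and Col5a3 followed in that order of means in every group. The ranges of Col12a1 and Col5a3 overlapped in inhibitor-treated and injured arteries, and those of Col16a1 and Col12a1 in injured arteries. Of the injured libraries, only replicate 3 held more Col12a1 than Col5a3 per kilobase. Col11a1 was lowest in each group, at 4.32 ± 1.67 per kb in inhibitor-treated, 139.6 ± 116 in injured and 2.26 ± 0.0378 in sham arteries.

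**Figure D1:**
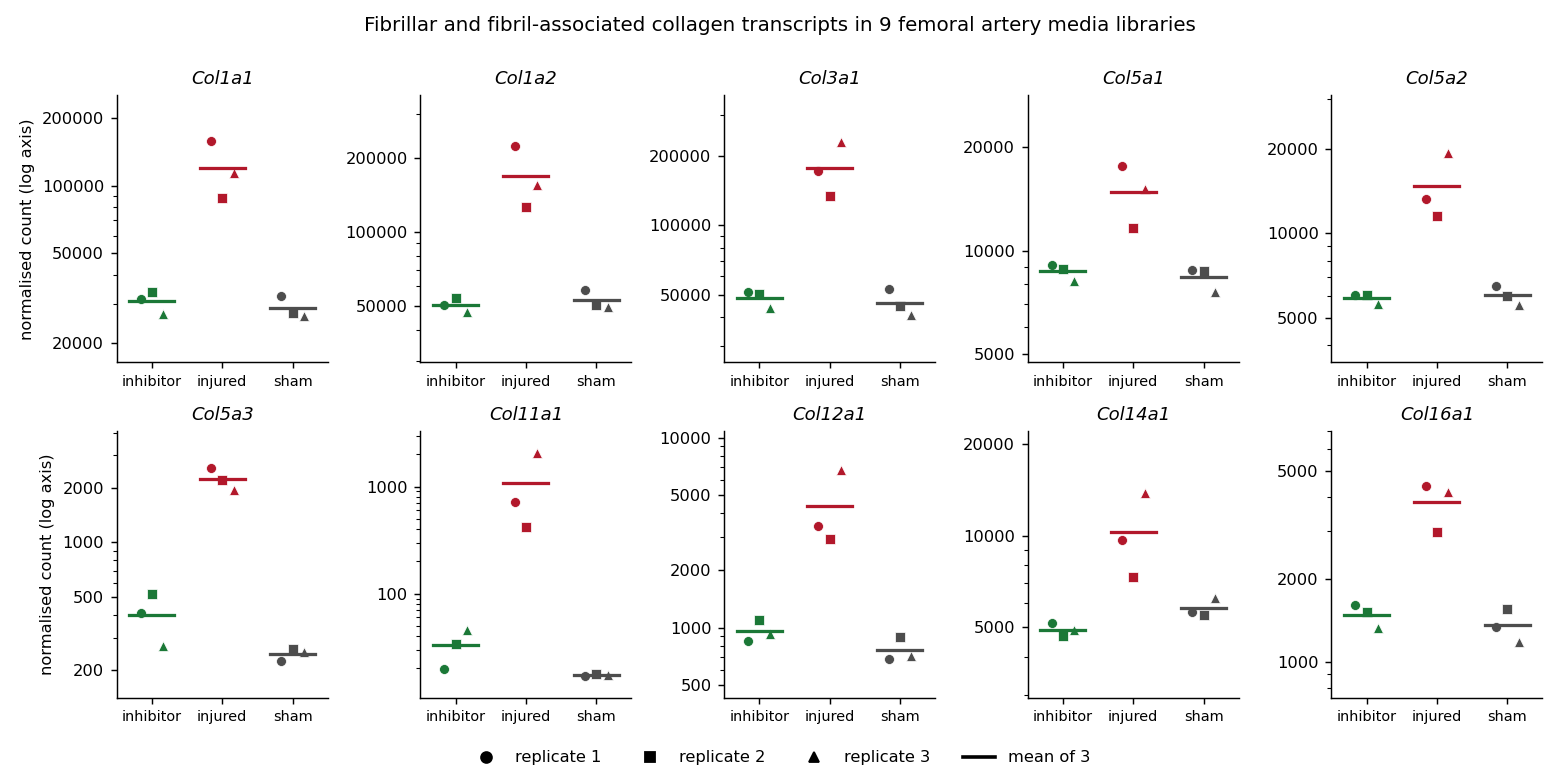
Normalised read counts (log axis) of the 10 collagens in the inhibitor-treated, injured and sham libraries, with 1 point per library and a bar at the group mean. In all 10 panels the injured points lie above those of both other groups.

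All 10 collagens were higher in injured than in sham arteries, from 1.72-fold for Col14a1 and 1.74-fold for Col5a1 to 46.2-fold for Col11a1. The type I and type III chains, which make up most of the per-kilobase sum of the 10, were 3.09-fold (Col1a2), 3.77-fold (Col3a1) and 4.05-fold (Col1a1) higher. Each of the 10 passed limma's moderated test (two-sided, Benjamini-Hochberg adjusted p under 0.05 over the 16278 genes tested) and none overlapped between groups, as was so of 26.4% of all genes tested in the higher and 24.9% in the lower direction. For comparison, 20.6% of all genes tested were called higher by the same rule and 16.8% lower. The median log2 fold change of the members was 1.77, beside -0.00256 for all genes tested. Fold changes are on the log2(value + 1) scale and carry their standard error.

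Col1a1 encodes the α1 chain of type I collagen, the main fibril protein of skin, bone, tendon and vessel wall. Its normalised counts were 31413, 33694 and 27035 in the inhibitor-treated libraries, 156826, 87731 and 113398 in the injured libraries and 32295, 27188 and 26321 in the sham libraries. The injured libraries all lay above every other library, with injured replicate 1 highest and injured replicate 2 lowest. The log2 fold change, injured over sham, was 2.02 ± 0.26 (limma, adjusted p = 0.000551). Col1a2 encodes the α2 chain that joins α1 in the type I triple helix. It stood at 50574, 53634 and 47242 in the inhibitor-treated libraries, 223504, 125557 and 155439 in the injured libraries and 58191, 50608 and 49445 in the sham libraries. The order of the injured libraries was as for Col1a1, the groups did not overlap, and the log2 fold change was 1.63 ± 0.29 (limma, adjusted p = 0.00275). Col3a1 encodes the only chain of type III collagen, which is prominent in distensible tissues and is mutated in human vascular Ehlers-Danlos syndrome. Its counts were 51358, 50581 and 43566 in the inhibitor-treated libraries, 171374, 133715 and 228307 in the injured libraries and 52992, 44768 and 40703 in the sham libraries. Here injured replicate 3, not 1, was the highest, and the inhibitor-treated and sham values intermixed. The log2 fold change was 1.91 ± 0.29 (limma, adjusted p = 0.00110).

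Col5a1 encodes the α1 chain present in nearly all type V collagen, which nucleates type I fibrils. Its counts were 9122, 8879 and 8153 in the inhibitor-treated libraries, 17694, 11635 and 15172 in the injured libraries and 8778, 8739 and 7583 in the sham libraries. The injured libraries were highest without overlap, by less than for the type I chains, and the log2 fold change over sham was 0.80 ± 0.18 (limma, adjusted p = 0.00757). Col5a2, the usual partner chain, had 6021, 6025 and 5619 in the inhibitor-treated libraries, 13219.7, 11476 and 19315 in the injured libraries and 6489, 6005 and 5564 in the sham libraries. Injured replicate 3 was the highest and injured replicate 2 still stood above all sham and inhibitor-treated libraries, with a log2 fold change of 1.25 ± 0.20 (limma, adjusted p = 0.00144). Col5a3 encodes the α3 chain of a minor form of type V collagen. It was at 409, 519 and 271 in the inhibitor-treated libraries, 2564, 2189.6 and 1939 in the injured libraries and 224, 260.3 and 250.5 in the sham libraries. The injured libraries lay close together and far above the rest, and the log2 fold change was 3.17 ± 0.14 (limma, adjusted p = 1.01e-05), equal to 8.99-fold. Per kilobase, Col5a3 averaged 365 ± 51.4 in injured and 40.0 ± 3.04 in sham arteries, while Col5a1 averaged 1765 ± 362 and 995 ± 80.7, so the α3 chain remained the scarcest of the type V chains. Scaled to ribosomal protein genes, which shifted the median of all genes to -0.23, the difference of Col5a1 was 0.58 and did not pass (adjusted p = 0.0800).

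Col11a1 encodes the α1 chain of type XI collagen, the fibril-starting collagen of cartilage, which can also form mixed molecules with type V chains. Its counts were 19.9, 33.9 and 45.4 in the inhibitor-treated libraries, 715, 417 and 2079 in the injured libraries and 17.0, 17.6 and 17.4 in the sham libraries. It was near the low end of detection outside the injured group and spread widely inside it, with injured replicate 3 far above injured replicates 1 and 2. The sham values rest on 17, 15 and 16 reads, and the smallest of these carries a 95% Poisson interval of 8.40 to 24.7 reads (counting error only). The log2 fold change was 5.53 ± 0.50 (limma, adjusted p = 8.64e-05), and without injured replicate 3 it was 4.89 (adjusted p = 2.17e-05). Of the 6 chondrocyte markers tested, 4 were higher and 1 lower in injured arteries, and of the 12 macrophage markers, 12 were higher. Col2a1, the main cartilage collagen, had 0.949, 13.8 and 2.73 in the inhibitor-treated libraries, 342, 569 and 297 in the injured libraries and 4.01, 4.69 and 5.44 in the sham libraries. Col2a1 was highest in injured replicate 2, where Col11a1 was the lowest of its group. The chondrocyte list as a whole ranked the injured libraries as Col11a1 did, at a mean log2 level of 6.89, 6.78 and 7.40 in replicates 1, 2 and 3. The macrophage list ranked them the other way, highest in injured replicate 2 and lowest in injured replicate 3. The part of these cell types in the Col11a1 result was not tested.

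Among the collagens that bind fibril surfaces, Col12a1 encodes type XII collagen, found in tendon, ligament and other tissues under tension. Its counts were 851, 1095 and 923 in the inhibitor-treated libraries, 3437, 2909 and 6795 in the injured libraries and 683, 895 and 711 in the sham libraries. Injured replicate 3 was the highest by far and injured replicate 2 the lowest, and the log2 fold change over sham was 2.42 ± 0.29 (limma, adjusted p = 0.000341). Col14a1 encodes type XIV collagen, a relative of type XII that limits fibril width in tendon of mice. It had 5159, 4693 and 4899 in the inhibitor-treated libraries, 9708, 7331 and 13834 in the injured libraries and 5616, 5483 and 6245 in the sham libraries. The difference was the smallest of the 10, at 0.78 ± 0.22 (limma, adjusted p = 0.0216), although the groups did not overlap. It did not pass without sham replicate 1 (0.76, adjusted p = 0.0791), without sham replicate 2 (0.74, adjusted p = 0.0848) or when scaled to ribosomal protein genes (0.56, adjusted p = 0.218). Col16a1 encodes type XVI collagen, which associates with fibrils and with fibrillin microfibrils. Its counts were 1609.9, 1514 and 1324 in the inhibitor-treated libraries, 4382, 2980.4 and 4165 in the injured libraries and 1343, 1556 and 1178 in the sham libraries. The injured libraries were highest without overlap, with a log2 fold change of 1.48 ± 0.17 (limma, adjusted p = 0.000307).

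**Figure D2:**
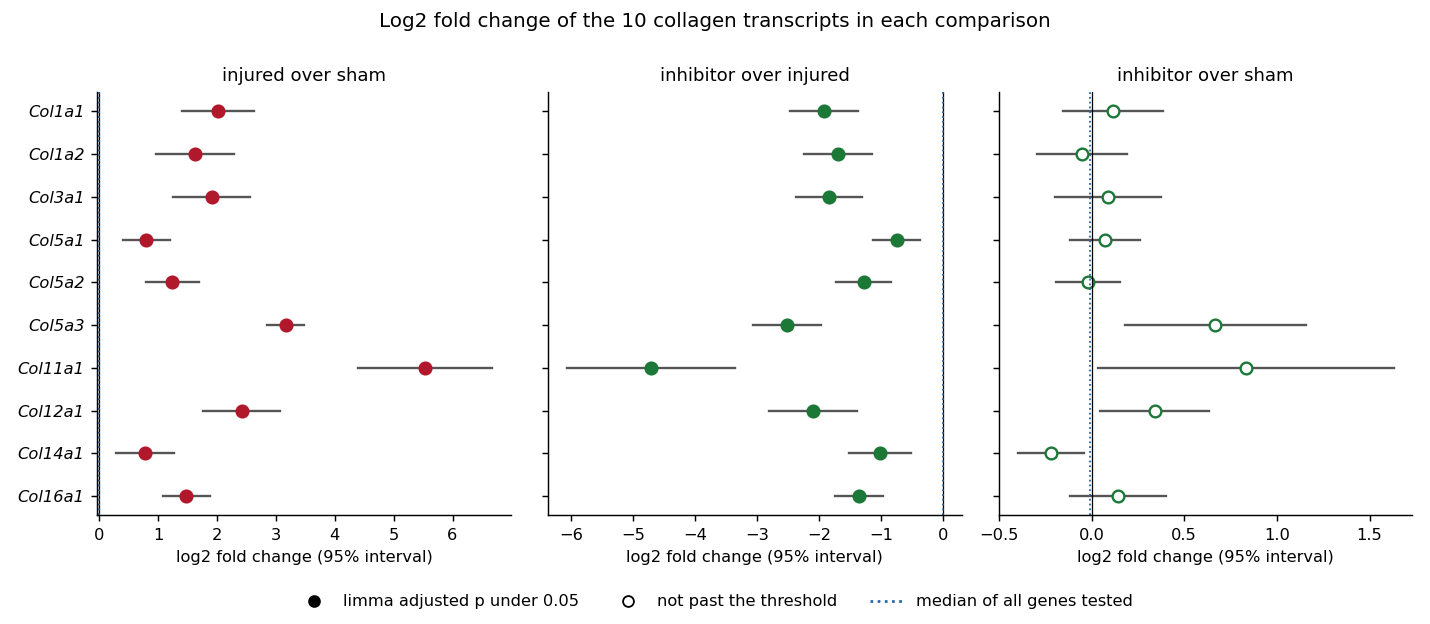
Log2 fold changes of the 10 collagens (points) with 95% intervals (bars) for injured over sham, inhibitor-treated over injured and inhibitor-treated over sham arteries. The injured over sham values lie right of 0 and the inhibitor-treated over injured values left of 0 for all 10, and the inhibitor-treated over sham values of Col5a3 and Col11a1 are the highest of their panel. Filled points passed limma's threshold, the dotted line is the median of all genes tested, and each panel has its own scale.

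Between inhibitor-treated and injured arteries the same 10 collagens differed, all with lower values in the inhibitor-treated group. Col1a1, Col1a2 and Col3a1 were 3.78-fold, 3.23-fold and 3.58-fold lower, and Col5a3 and Col11a1 were 5.72-fold and 26.3-fold lower. All 10 passed limma's test over 16901 genes, of which 18.5% were called lower and 17.6% higher, and for all 10 every inhibitor-treated library lay below every injured library. Of all genes tested, 25.7% lay below in that way and 26.3% above. The median of the members was -1.77, beside 0.00606 for all genes tested. This comparison uses the same 3 injured libraries as the one with sham, so a high injured value enters both and the pair of comparisons is not independent.

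The log2 fold change, inhibitor-treated over injured, was -1.92 ± 0.23 for Col1a1 (limma, adjusted p = 0.000871), -1.69 ± 0.24 for Col1a2 (adjusted p = 0.00154) and -1.84 ± 0.23 for Col3a1 (adjusted p = 0.000960). The inhibitor-treated libraries of these chains lay close together, the highest at most 1.25 times the lowest, and the injured libraries spread by up to 1.79 times. For the type V chains the values were -0.74 ± 0.16 for Col5a1 (limma, adjusted p = 0.0109), -1.28 ± 0.19 for Col5a2 (adjusted p = 0.00204) and -2.52 ± 0.23 for Col5a3 (adjusted p = 0.000303). The call of Col5a1 was lost without inhibitor replicate 3 (-0.70, adjusted p = 0.0564). Col11a1 fell by 4.72 ± 0.58 (limma, adjusted p = 0.000900), with a change of -4.07 once injured replicate 3 was left out and of -5.50 without the 3 libraries that stand apart. Among the fibril-associated chains, the changes were -2.10 ± 0.30 for Col12a1 (limma, adjusted p = 0.00175), -1.01 ± 0.22 for Col14a1 (adjusted p = 0.00985) and -1.35 ± 0.16 for Col16a1 (adjusted p = 0.000853). Scaled to ribosomal protein genes, which put the median of all genes at 0.36, 7 of 10 passed, and Col5a1 (-0.39, adjusted p = 0.182), Col5a2 (-0.92, adjusted p = 0.0530) and Col14a1 (-0.66, adjusted p = 0.147) did not.

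Between inhibitor-treated and sham arteries none of the 10 collagens passed limma's test, which called 5.15% of 16166 genes higher and 0.934% lower. At an unadjusted p under 0.05 there were 4, while edgeR's quasi-likelihood test on the recovered reads called 0 and DESeq2 called 1 (Col5a3). The shares of all genes under these other rules are not given here, so these counts cannot be set against all genes. The highest estimates were those of Col11a1 and Col5a3, chains of the fibril-starting types XI and V. A p that misses the threshold does not show that levels were equal, so the 95% intervals are given. This comparison shares its inhibitor-treated libraries with the one against injured arteries and its sham libraries with the other.

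For the type I and III chains the log2 differences were 0.11 ± 0.12 for Col1a1 (95% interval -0.16 to 0.38), -0.05 ± 0.11 for Col1a2 (95% interval -0.29 to 0.19) and 0.09 ± 0.12 for Col3a1 (95% interval -0.20 to 0.37), and the groups overlapped for each. Col5a1 (-0.11 to 0.26), Col5a2 (-0.19 to 0.15) and Col16a1 (-0.12 to 0.40) likewise had intervals that included 0 and overlapping libraries. Col12a1 overlapped between groups, with a difference of 0.34 ± 0.13 (95% interval 0.05 to 0.63, limma, adjusted p = 0.177). Col5a3, Col11a1 and Col14a1 were the 3 members whose libraries did not overlap, and of all genes tested 14.0% were higher and 14.5% lower without overlap. All inhibitor-treated libraries were above all sham libraries for Col5a3 (0.67 ± 0.21, 95% interval 0.18 to 1.16, limma, adjusted p = 0.119) and for Col11a1 (0.83 ± 0.35, 95% interval 0.03 to 1.63, adjusted p = 0.220). Col14a1 lay below sham in all inhibitor-treated libraries (-0.22 ± 0.08, 95% interval -0.40 to -0.04, limma, adjusted p = 0.152). Col5a3 depended on the test and on 1 library: DESeq2 called it higher (0.72, adjusted p = 0.0231), the authors' deposited table lists an adjusted p of 0.0232 for it, and limma called it without inhibitor replicate 3 (0.92, adjusted p = 0.0173). For Col11a1 the inhibitor-treated values rest on 21, 37 and 50 reads.

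Within the injured group the members did not rank the libraries alike. Injured replicate 2 was the lowest of the 3 for 9 of 10 members, the exception being Col5a3, whose lowest library was injured replicate 3. Injured replicate 1 was highest for Col1a1, Col1a2, Col5a1, Col5a3 and Col16a1, and injured replicate 3 for Col3a1, Col5a2, Col11a1, Col12a1 and Col14a1. The highest injured library exceeded the lowest by 1.32 times for Col5a3 and by 4.98 times for Col11a1, the narrowest and widest spread among the members. In the other groups the spread was at most 2.28 times for inhibitor-treated and 1.32 times for sham libraries.

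Ratios of a pair of chains within a library do not depend on how libraries were scaled, and they are given as log2 values without a test, since 3 against 3 libraries cannot give an exact two-sided permutation p under 0.1. The ratio of Col1a1 to Col1a2 was -0.69, -0.67 and -0.81 in the inhibitor-treated libraries, -0.51, -0.52 and -0.45 in the injured libraries and -0.85, -0.90 and -0.91 in the sham libraries. The groups did not overlap: Col1a1 gained on Col1a2 in the injured arteries, and the inhibitor-treated arteries lay between. Col3a1 relative to Col1a1 was 0.66 ± 0.07 in inhibitor-treated, 0.58 ± 0.44 in injured and 0.69 ± 0.05 in sham arteries (mean ± SD, n = 3), with overlapping libraries. Relative to Col1a1, Col5a1 was -1.81 ± 0.10 in inhibitor-treated, -2.99 ± 0.14 in injured and -1.77 ± 0.12 in sham arteries, and Col16a1 was -4.37 ± 0.10 in inhibitor-treated, -4.94 ± 0.20 in injured and -4.40 ± 0.24 in sham arteries. Both were lower against Col1a1 in every injured library than in any other, as was Col14a1, at -2.64 ± 0.19 in inhibitor-treated, -3.54 ± 0.49 in injured and -2.30 ± 0.22 in sham arteries. Col12a1 relative to Col1a1 overlapped between groups, at -5.01 ± 0.18 in inhibitor-treated, -4.83 ± 0.73 in injured and -5.23 ± 0.32 in sham arteries. The balance of the related surface collagens, Col14a1 over Col12a1, was 2.37 ± 0.25 in inhibitor-treated, 1.29 ± 0.24 in injured and 2.93 ± 0.28 in sham arteries, without overlap between any of the groups.

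Among the fibril-starting chains, Col5a3 relative to Col5a1 was -4.48, -4.10 and -4.91 in the inhibitor-treated libraries, -2.79, -2.41 and -2.97 in the injured libraries and -5.29, -5.07 and -4.92 in the sham libraries. The inhibitor-treated libraries were the ones in between, although inhibitor replicate 3 and sham replicate 3 nearly coincided. Col5a2 relative to Col5a1 was -0.57 ± 0.03 in inhibitor-treated, -0.03 ± 0.38 in injured and -0.47 ± 0.06 in sham arteries, and Col11a1 relative to Col5a1 was -8.12 ± 0.68 in inhibitor-treated, -4.10 ± 1.07 in injured and -8.91 ± 0.13 in sham arteries. As a share of the per-kilobase sum of the 10 members, Col1a1, Col1a2 and Col3a1 together made up 88.1, 88.7 and 87.8% in the inhibitor-treated libraries, 93.2, 91.9 and 91.0% in the injured libraries and 88.8, 87.3 and 87.4% in the sham libraries. The type I and III share was highest in the injured libraries, and the type V share was lowest there. Col5a1, Col5a2 and Col5a3 together made up 7.57, 7.33 and 7.70% in the inhibitor-treated libraries, 4.25, 5.12 and 5.14% in the injured libraries and 7.08, 7.86 and 7.42% in the sham libraries.

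**Figure D3:**
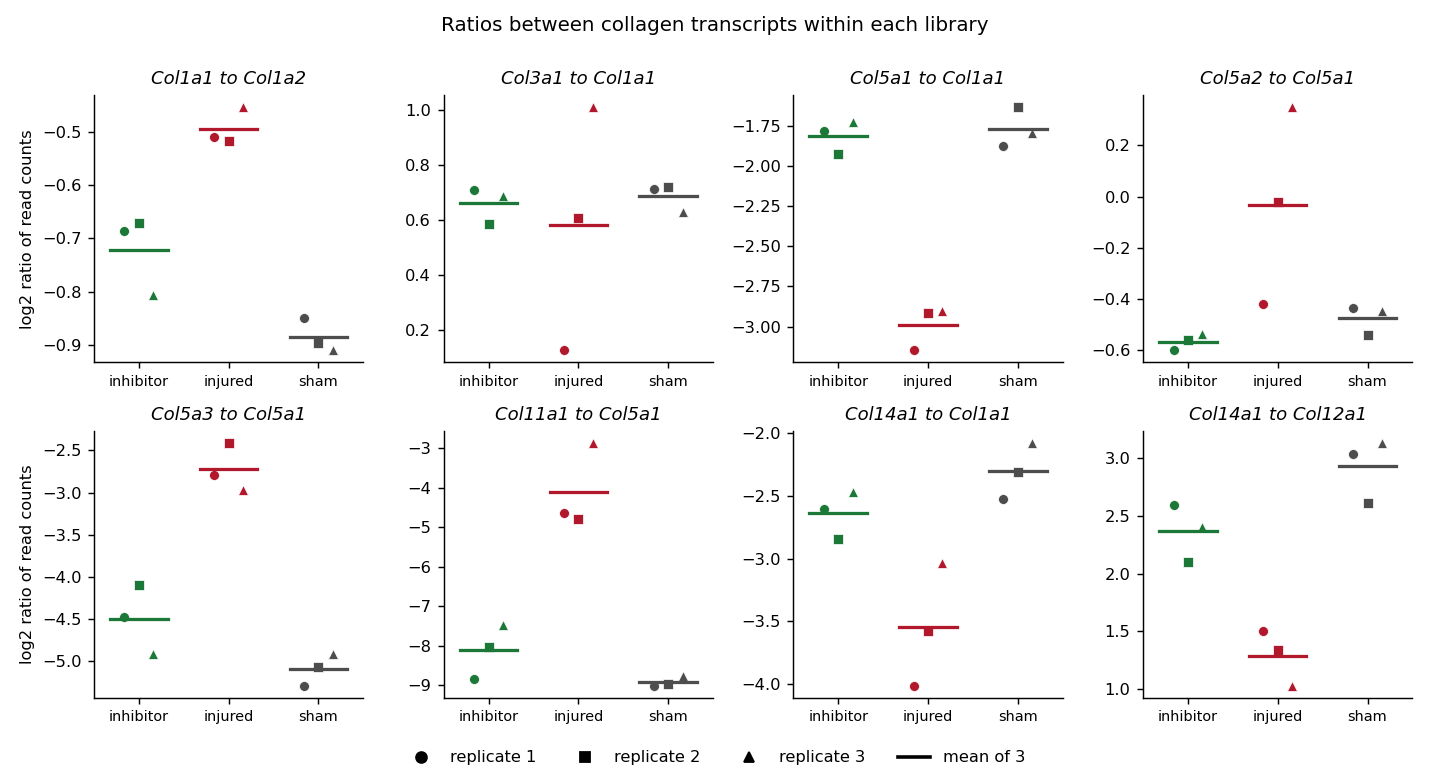
Log2 ratios of the read counts of pairs of collagen chains within each library (1 point per library, shaped by replicate) with the group mean (bar), in inhibitor-treated, injured and sham arteries. Col1a1 to Col1a2, Col5a3 to Col5a1 and Col14a1 to Col12a1 separate all 3 groups, and Col3a1 to Col1a1 overlaps between them.

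The other genes of collagen assembly were described by lists, as counts called by limma and as medians, beside the 20.6% of all genes called higher and 16.8% called lower in injured than in sham arteries. Genes of chain modification and export did not shift as a block: 4 of 26 were higher and 6 lower, with a median log2 fold change of -0.07. Of their most abundant called members, Sparc, a collagen-binding matrix protein, was higher (0.82 ± 0.28, adjusted p = 0.0478), while Creb3l2, a transcription factor of the secretory pathway, and Sec24d, a coat protein of transport vesicles, were lower (-0.66 ± 0.13, adjusted p = 0.00379 and -0.73 ± 0.15, adjusted p = 0.00519). Sparc did not pass without injured replicate 1, sham replicate 1, sham replicate 2 or sham replicate 3 (adjusted p between 0.108 and 0.171), nor with a pseudocount of 5, when scaled to ribosomal protein genes or without the 3 libraries that stand apart (adjusted p between 0.0556 and 0.0847). Of the propeptide-processing genes, 3 of 7 were higher and 1 lower, with a median of 0.46. The proteinases that remove the N- and C-propeptides, Adamts2 (0.63 ± 0.17, adjusted p = 0.0208) and Bmp1 (0.59 ± 0.13, adjusted p = 0.00744), were higher, and the enhancer protein Pcolce2 was lower (-1.54 ± 0.11, adjusted p = 3.06e-05). Adamts2 did not pass without sham replicate 2 or sham replicate 3 (adjusted p between 0.0744 and 0.0746), and neither passed when scaled to ribosomal protein genes (adjusted p = 0.169 and 0.266). Of the cross-linking enzymes, 2 of 6 were higher and 1 lower: the lysyl oxidases Lox (1.24 ± 0.27, adjusted p = 0.00741) and Loxl2 (1.48 ± 0.23, adjusted p = 0.00149) were higher and the transglutaminase Tgm2 was lower (-1.004 ± 0.14, adjusted p = 0.000887).

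Of the proteins that regulate fibrils, 9 of 17 were higher and 3 lower in injured arteries, with a median of 0.72. The small proteoglycan decorin, Dcn, was higher (1.24 ± 0.21, adjusted p = 0.00188), as was fibronectin, Fn1 (0.72 ± 0.21, adjusted p = 0.0273), which did not pass without sham replicate 1, sham replicate 2 or sham replicate 3 (adjusted p between 0.0730 and 0.101), nor when scaled to ribosomal protein genes or without the 3 libraries that stand apart (adjusted p between 0.0849 and 0.224). Sparc, given above, belongs to this list too. Of the collagen receptors, 4 of 10 were higher and 2 lower, with a median of 0.34. The β1 integrin subunit Itgb1 was lower (-0.76 ± 0.17, adjusted p = 0.00817) and the collagen uptake receptor Mrc2 was higher (0.71 ± 0.16, adjusted p = 0.00959), though it was not called when scaled to ribosomal protein genes (adjusted p = 0.101). Cd36, a scavenger and thrombospondin receptor, was higher (1.01 ± 0.33, adjusted p = 0.0416), and did not pass without injured replicate 1, injured replicate 2, injured replicate 3, sham replicate 1 or sham replicate 2 (adjusted p between 0.0555 and 0.148), nor with edgeR or when scaled to ribosomal protein genes (adjusted p between 0.0731 and 0.167). Of the collagenases, gelatinases and their inhibitors, 8 of 10 were higher and 0 lower, with a median of 2.13. The membrane protease Mmp14 stood at 1695, 1971 and 1302 in the inhibitor-treated libraries, 14889, 7928 and 6832 in the injured libraries and 1428, 1161 and 1057 in the sham libraries. The injured libraries were far above the rest without overlap, with a log2 fold change of 2.94 ± 0.27, adjusted p = 9.95e-05. The gelatinase Mmp2 (2.15 ± 0.22, adjusted p = 0.000166) and cathepsin K, Ctsk (2.11 ± 0.15, adjusted p = 2.95e-05), were higher as well. Of the profibrotic signalling genes, 4 of 17 were higher and 4 lower, with a median of -0.01: Thbs1 was higher (2.59 ± 0.27, adjusted p = 0.000165), and Ltbp1, which binds latent TGF-β, was lower (-1.63 ± 0.16, adjusted p = 0.000132).

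In inhibitor-treated against injured arteries, 17.6% of all genes tested were called higher and 18.5% lower. Of the 26 modification and export genes, 5 were higher and 7 lower (median -0.11). Creb3l2 was higher (0.68 ± 0.10, adjusted p = 0.00178), and Sparc (-0.97 ± 0.20, adjusted p = 0.00911) and the collagen chaperone Serpinh1 (-0.48 ± 0.14, adjusted p = 0.0373) were lower. Sparc did not pass without inhibitor replicate 1 or inhibitor replicate 3 (adjusted p between 0.0569 and 0.125), nor without the 3 libraries that stand apart (adjusted p = 0.118). Serpinh1 did not pass without inhibitor replicate 1, inhibitor replicate 2 or inhibitor replicate 3 (adjusted p between 0.105 and 0.132), nor when scaled to ribosomal protein genes or without the 3 libraries that stand apart (adjusted p between 0.117 and 0.607). Of the 7 propeptide-processing genes, 1 was higher and 4 lower (median -0.72), with Adamts2 at -0.87 ± 0.15, adjusted p = 0.00452, Bmp1 at -0.72 ± 0.11, adjusted p = 0.00241 and the proteinase enhancer Pcolce at -0.88 ± 0.12, adjusted p = 0.00145. None of these 3 passed when scaled to ribosomal protein genes (adjusted p = 0.0795, 0.237 and 0.130). Of the 6 cross-linking enzymes, 1 was higher and 2 lower (median -0.33): Tgm2 was higher (1.01 ± 0.10, adjusted p = 0.000378), and Loxl2 (-1.46 ± 0.20, adjusted p = 0.00154) and Lox (-0.96 ± 0.26, adjusted p = 0.0264) were lower, and Lox was not called without injured replicate 1, inhibitor replicate 2 or inhibitor replicate 3 (adjusted p between 0.0614 and 0.0798), nor when scaled to ribosomal protein genes or without the 3 libraries that stand apart (adjusted p between 0.0793 and 0.0908).

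Of the 17 fibril regulators, 3 were higher and 9 lower in inhibitor-treated arteries (median -0.75). Dcn was lower (-1.59 ± 0.16, adjusted p = 0.000433) and osteoglycin, Ogn, another small proteoglycan, was higher (1.37 ± 0.17, adjusted p = 0.000879). Of the 11 receptors, 4 were higher and 4 lower (median 0.63), with Itgb1 higher (0.75 ± 0.12, adjusted p = 0.00280), and Mrc2 (-1.12 ± 0.16, adjusted p = 0.00186) and Cd36 (-0.72 ± 0.19, adjusted p = 0.0250) lower. Cd36 did not pass without inhibitor replicate 1 or inhibitor replicate 3 (adjusted p between 0.0876 and 0.0947), nor with all 9 libraries in 1 fit, when scaled to ribosomal protein genes or without the 3 libraries that stand apart (adjusted p between 0.0888 and 0.365). Of the 10 collagenases, gelatinases and inhibitors, 0 were higher and 5 lower (median -2.01), among them Mmp2 (-2.26 ± 0.22, adjusted p = 0.000386), Mmp14 (-2.51 ± 0.30, adjusted p = 0.000786) and Ctsk (-2.04 ± 0.14, adjusted p = 9.72e-05). Of the 17 profibrotic signalling genes, 5 were higher and 4 lower (median 0.04): Ltbp1 was higher (1.72 ± 0.11, adjusted p = 8.93e-05) and Thbs1 was lower (-0.85 ± 0.14, adjusted p = 0.00309), which was not called when scaled to ribosomal protein genes (adjusted p = 0.155). Itgb1 was not called without the 3 libraries that stand apart (adjusted p = 0.0743) or after quantile normalisation (adjusted p = 0.102). The genes named in both comparisons share the injured libraries.

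In inhibitor-treated against sham arteries, beside 5.15% of all genes tested called higher and 0.934% lower, the propeptide-processing genes were called 0 higher and 2 lower of 7 and the fibril regulators 0 higher and 1 lower of 16. The collagen receptors were called 2 higher and 1 lower of 11, the collagenases, gelatinases and inhibitors 1 higher and 0 lower of 9, and the profibrotic signalling genes 2 higher and 0 lower of 17. The medians of these lists, in the same order, were -0.12, -0.12, 0.23, -0.01 and 0.02, beside -0.01 for all genes tested. The proteinase enhancers Pcolce (-0.51 ± 0.07, adjusted p = 0.00451) and Pcolce2 (-0.45 ± 0.08, adjusted p = 0.0149) were lower, and Pcolce2 was not called without sham replicate 1 or inhibitor replicate 2 (adjusted p = 0.0633), nor when scaled to ribosomal protein genes or without the 3 libraries that stand apart (adjusted p between 0.0579 and 0.0767). Fbln1, a matrix glycoprotein, was the 1 fibril regulator called, lower at -0.54 ± 0.08, adjusted p = 0.00663 and not called without the 3 libraries that stand apart (adjusted p = 0.0548). Mrc2 was lower (-0.40 ± 0.07, adjusted p = 0.0103), though it was not called without inhibitor replicate 2 (adjusted p = 0.0504), nor with all 9 libraries in 1 fit or when scaled to ribosomal protein genes (adjusted p between 0.0859 and 0.183). The collagen-binding integrin subunit Itga2 was higher (3.36 ± 0.56, adjusted p = 0.0119), though it was not called without sham replicate 1, inhibitor replicate 2 or inhibitor replicate 3 (adjusted p between 0.0503 and 0.0632), nor without the 3 libraries that stand apart (adjusted p = 0.0874). Gp6, the platelet collagen receptor, had 342, 677 and 506 in the inhibitor-treated libraries, 2.39, 4.74 and 0 in the injured libraries and 0, 2.34 and 3.27 in the sham libraries. It was plain in every inhibitor-treated library and at or near 0 in the others. It moved with the erythroid markers, of which 7 of 7 tested were higher, and their part was not tested. Between injured and sham arteries only 1 of these markers was high enough to be tested. Most of the 7 thus entered the test only through the inhibitor-treated group. Mmp8, a neutrophil collagenase, had 18.0, 37.6 and 41.8 in inhibitor-treated and 0, 0 and 2.18 in sham libraries (limma, adjusted p = 0.00823), a difference not called without inhibitor replicate 2 (adjusted p = 0.0513). With sham means of 1.87 and 0.726, Gp6 and Mmp8 also passed the filter on low values only through the inhibitor-treated group. The higher calls given above for the receptors and the collagenases include them. Of the profibrotic signalling genes, Thbs1 (1.76 ± 0.25, adjusted p = 0.00543) and the transcription factor Runx1 (1.77 ± 0.18, adjusted p = 0.00105) were higher. No modification, export or cross-linking gene was called by limma or edgeR, with 6 modification and export genes and 0 cross-linking genes at an unadjusted p under 0.05 and 3 and 0 called by DESeq2.

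**Figure D4:**
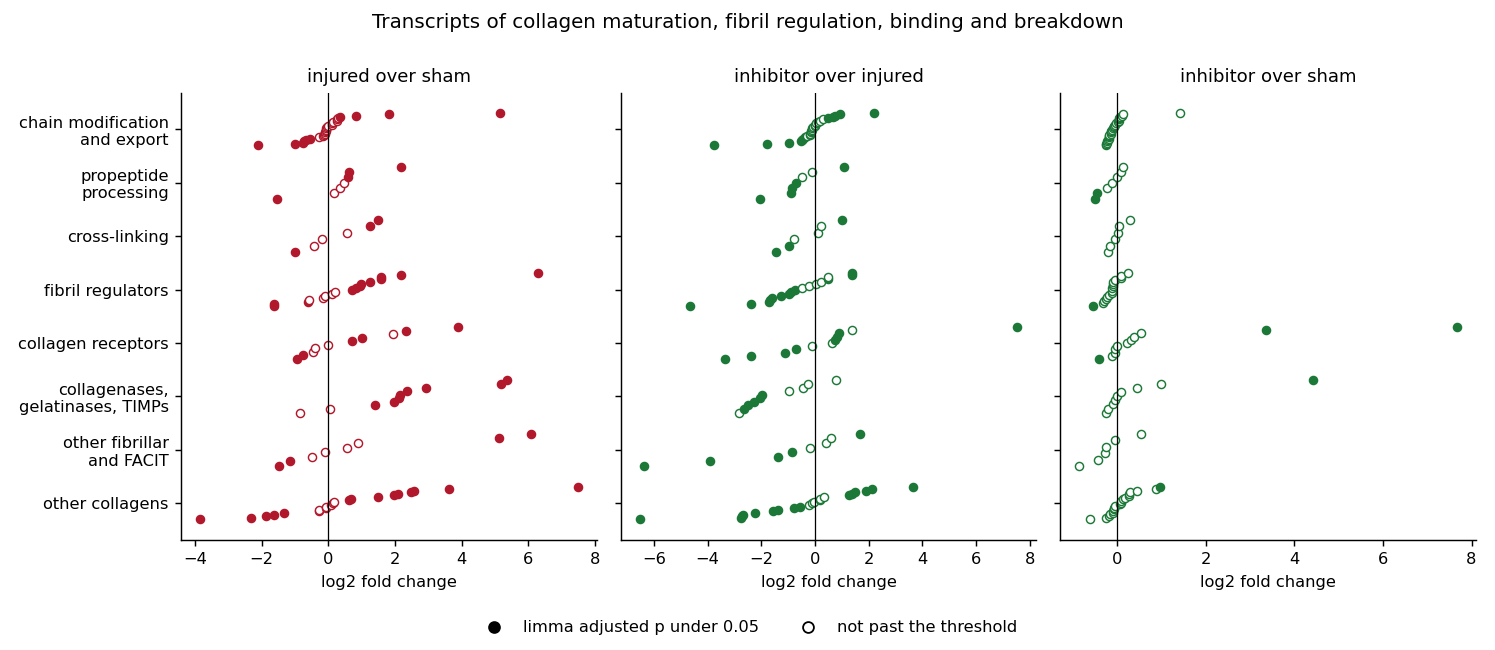
Log2 fold changes of the genes of each list (1 point per gene, filled where limma's adjusted p was under 0.05) for injured over sham, inhibitor-treated over injured and inhibitor-treated over sham arteries. The collagenase and gelatinase points lie mostly right of 0 for injured over sham, and the modification and export points scatter on both sides of 0.

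The remaining collagens did not share one direction. Of all genes tested, 20.6% were called higher and 16.8% lower between injured and sham arteries. Between inhibitor-treated and injured arteries the shares were 17.6% and 18.5%, and between inhibitor-treated and sham arteries 5.15% and 0.934%. Of the 8 other fibrillar and fibril-associated collagens tested between injured and sham arteries, 2 were higher and 2 lower (median 0.23), which is near those shares. Col2a1 (6.08 ± 0.31, adjusted p = 1.31e-05) and the fibrillar Col24a1 (5.11 ± 0.43, adjusted p = 6.73e-05) were higher, and Col19a1, a relative of the fibril-associated collagens, was lower (-1.16 ± 0.20, adjusted p = 0.00227). Col2a1 and Col24a1 averaged 403 and 109 in injured but 4.71 and 2.23 in sham arteries. Both passed the filter at a mean of 10 only through the injured group, and their fold sizes rest on few sham reads. Col2a1 was also low in inhibitor-treated arteries, at a mean of 5.81. In inhibitor-treated against injured arteries, 1 was higher and 4 lower of 8 (median -0.51), with Col19a1 at 1.68 ± 0.18, adjusted p = 0.000546, Col2a1 at -6.36 ± 0.71, adjusted p = 0.000616 and the fibrillar Col27a1 at -0.85 ± 0.13, adjusted p = 0.00210. Col27a1 did not pass when scaled to ribosomal protein genes (adjusted p = 0.0866). Of the 21 collagens of other classes, 9 were higher and 5 lower in injured than in sham arteries (median 0.15). The basement membrane chains Col18a1 (-1.32 ± 0.19, adjusted p = 0.000884) and Col4a5 (-1.87 ± 0.20, adjusted p = 0.000213) were lower, opposite in sign to the 10 fibrillar and fibril-associated chains. Col6a3, of the type VI microfibrils, was higher (0.61 ± 0.19, adjusted p = 0.0320), and did not pass without injured replicate 1, sham replicate 1, sham replicate 2 or sham replicate 3 (adjusted p between 0.0518 and 0.113), nor when scaled to ribosomal protein genes or with sample weights (adjusted p between 0.0620 and 0.314). In inhibitor-treated against injured arteries, 6 were higher and 9 lower of 21 (median -0.10), with Col18a1 at 1.48 ± 0.13, adjusted p = 0.000260, Col4a5 at 1.91 ± 0.20, adjusted p = 0.000461 and Col6a3 at -0.55 ± 0.16, adjusted p = 0.0353, the last not called without injured replicate 1, inhibitor replicate 1, inhibitor replicate 2 or inhibitor replicate 3 (adjusted p between 0.0783 and 0.115), nor when scaled to ribosomal protein genes or without the 3 libraries that stand apart (adjusted p between 0.0511 and 0.591). Against sham arteries, 0 of 6 other fibrillar and fibril-associated collagens (2 at an unadjusted p under 0.05, 0 by edgeR and DESeq2) and 1 of 20 were called in inhibitor-treated arteries, the 1 being the transmembrane Col13a1, higher at 0.97 ± 0.19, adjusted p = 0.0213 and not called without sham replicate 1, sham replicate 3, inhibitor replicate 1, inhibitor replicate 2 or inhibitor replicate 3 (adjusted p between 0.0575 and 0.0800), nor with all 9 libraries in 1 fit or without the 3 libraries that stand apart (adjusted p between 0.124 and 0.168).

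Markers of the cell types an artery sample can hold also differed between groups, some in the direction of the collagens and some not. Their part in the collagen results was not tested. In injured against sham arteries, 20.6% of all genes tested were called higher and 16.8% lower. Adventitial fibroblast markers were called 6 higher and 1 lower of 12 there, and 4 to 7 higher over the alternatives. Their summed level was 24043 to 25608 in inhibitor-treated, 40781 to 42023 in injured and 32228 to 39942 in sham libraries. The injured libraries were highest and the inhibitor-treated libraries lowest. Macrophage markers were called 12 higher and 0 lower of 12, with summed levels of 6004 to 10317 in inhibitor-treated, 35819.9 to 54492 in injured and 4020.1 to 5521 in sham libraries. Contractile smooth muscle markers ran the other way, at 0 higher and 10 lower of 12. Endothelial markers were called 7 higher and 0 lower of 10 (summed level 30675 to 31954 in inhibitor-treated, 35642 to 49338 in injured and 24423 to 37614 in sham libraries) and dividing-cell markers 10 higher and 0 lower of 10 (summed level 649 to 1379 in inhibitor-treated, 2285 to 2821 in injured and 303 to 392 in sham libraries). Schwann cell markers were called 7 higher and 0 lower of 9 (summed level 4767 to 6317 in inhibitor-treated, 6667 to 8321 in injured and 4952 to 5936 in sham libraries), and chondrocyte markers had a summed level of 1434 to 1738 in inhibitor-treated, 4446 to 5232 in injured and 1482 to 1845 in sham libraries. None of the genes in these lists that the tables hold was at 0 in any library.

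Skeletal muscle markers, called 9 higher and 0 lower of 12 in injured against sham arteries and 1 to 12 higher over the alternatives, set injured replicate 2 apart, with a mean log2 level of 14.7, against 11.7 and 10.9 in injured replicates 1 and 3. Sham replicate 3 stood at 10.9, against 8.72 and 8.19 in sham replicates 1 and 2. Inhibitor replicate 2 also stood at 10.9, against 7.31 and 8.96 in inhibitor replicates 1 and 3. It was kept in the fits without the 3 libraries that stand apart. The summed level of the list was 2556 to 41732 in inhibitor-treated, 36075 to 593908 in injured and 5767 to 33992 in sham libraries. Injured replicate 2 is also the library with the lowest values of 9 collagens in its group. Hepatocyte markers set inhibitor replicate 3 apart, at a mean log2 level of 10.5, and their summed level was 1465 to 24574 in inhibitor-treated, 6118 to 12441 in injured and 2886 to 6329 in sham libraries. Serpina1a and Fgb were at 0 in at least 1 library. In injured against sham arteries they were called 1 higher and 0 lower of 4. Erythroid markers were high in all inhibitor-treated libraries, at a summed level of 38029 to 88989 in inhibitor-treated, 77.8 to 184 in injured and 175 to 356 in sham libraries, with Epb42, Rhag and Hemgn at 0 in at least 1 library. They were called 0 higher and 1 lower of 1 in injured against sham arteries, where the others were too low to be tested. In the comparisons with inhibitor-treated arteries those others were tested only because that group was high. Without injured replicate 2, sham replicate 3 and inhibitor replicate 3, all 10 collagens were still called higher in injured than in sham and lower in inhibitor-treated than in injured arteries.

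Between inhibitor-treated and injured arteries, 17.6% of all genes tested were called higher and 18.5% lower. The markers were called 1 higher and 9 lower of 12 for adventitial fibroblasts, 0 higher and 12 lower of 12 for macrophages and 11 higher and 0 lower of 12 for contractile smooth muscle. They were called 0 higher and 7 lower of 10 for endothelium, 0 higher and 9 lower of 10 for dividing cells, 1 higher and 4 lower of 6 for chondrocytes and 0 higher and 3 lower of 9 for Schwann cells. For adventitial fibroblasts the lower calls were 3 to 10 over the alternatives. They were 3 when scaled to ribosomal protein genes and 6 without the 3 libraries that stand apart. Skeletal muscle, hepatocyte and erythroid markers were called 0 higher and 2 lower of 12, 0 higher and 1 lower of 8 and 7 higher and 0 lower of 7. The skeletal muscle count depended on the test, with 0 to 12 called lower over the alternatives and 9 called by DESeq2. All 12 had an unadjusted p under 0.05 with limma, and their median log2 fold change was -3.43. In inhibitor-treated against sham arteries, 5 of 12 adventitial fibroblast markers were called lower, and 3 of 12 macrophage, 2 of 10 dividing-cell and 7 of 7 erythroid markers higher, beside 0.934% of all genes tested called lower and 5.15% higher. No contractile, endothelial, skeletal muscle, chondrocyte, Schwann cell or hepatocyte marker was called in that comparison by limma or edgeR. Of these lists in that order, 2, 0, 0, 1, 3 and 1 markers had an unadjusted p under 0.05, and DESeq2 called 1 chondrocyte and 1 Schwann cell marker.

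**Figure D5:**
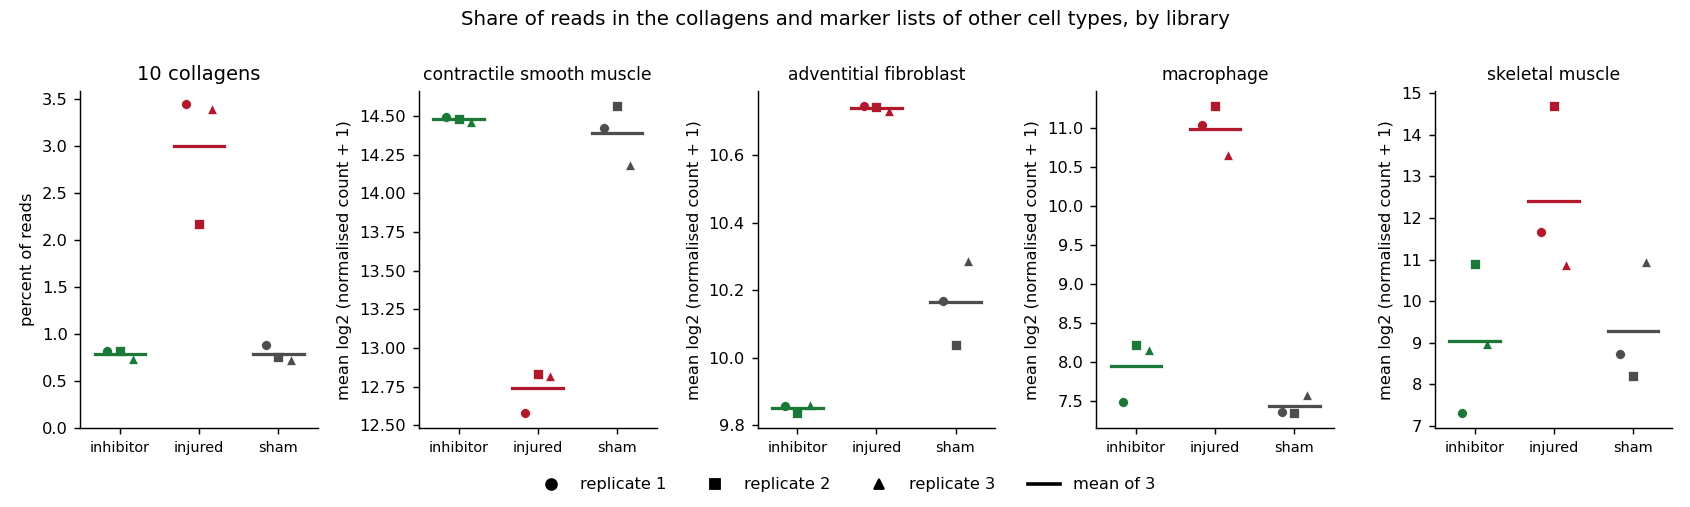
Percent of reads in the 10 collagens and mean log2(normalised count + 1) of 4 cell type marker lists, with 1 point per library and a bar at the mean, in inhibitor-treated, injured and sham arteries. The collagen share and the fibroblast and macrophage markers are highest in the injured libraries, the contractile smooth muscle markers are lowest there, and injured replicate 2 has the highest skeletal muscle markers and the lowest collagen share of its group.

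Likeness to a member was measured as the root mean square difference of log2 levels over the 9 libraries, each gene centred on its sham mean, among 11640 genes with a mean normalised count of at least 100, and it is a description without a test. The 5 genes most like Col1a1 were Mdk (0.142), Mfap2 (0.145), Ssc5d (0.161), Cmtm3 (0.183) and Tubb2b (0.194), with the difference in log2 units in parentheses. For Col5a3 they were Ifi204 (0.312), Ifi203 (0.312), Mmp14 (0.315), Slfn8 (0.321) and Mndal (0.328), and for Col14a1 Ptgfrn (0.126), Pdgfrl (0.138), Cacna1a (0.155), Flrt2 (0.163) and Tmod2 (0.163). For Col11a1, chosen after its values were seen, they were P4ha3 (0.74), Ms4a7 (0.745), Ccr2 (0.861), Trem2 (0.867) and Mpeg1 (0.879). Mmp14, described above among the proteases, is thus among the genes closest to Col5a3. Among the members, Col1a1 and Col3a1 were each other's nearest member (0.221), Col1a2 and Col16a1 formed the closest pair (0.211), and Col5a1 and Col14a1, the members with the smallest differences, were each other's nearest member (0.271). Among all genes, Col3a1 was rank 10 in likeness to Col1a1 and Col16a1 rank 9 to Col1a2, while Col14a1 was only rank 468 to Col5a1, and Col5a1 rank 181 to Col14a1. Col5a3 and Col11a1 stood furthest from the other members, with nearest distances of 0.637 (to Col12a1) and 1.56 (to Col5a3).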

How the data were processed

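The media of femoral arteries was sequenced in 9 libraries of 3 groups. The authors deposited 3 tables, 1 per pair of groups, with a normalised count (a signal made from read counts and 1 factor per library), and their own log2 fold change and p-value, raw and adjusted, for each gene, per the file headers. The build was mm10 (GRCm38), per the submitters' processing notes. Aligner, counter, strand setting and the test the authors ran: not given in the sources used here. Whole reads were recovered for 100% of the values within 0.01 of a read, and the tables hold 0 unused sample columns. Levels across groups used median-of-ratios factors over the 16750 genes with a read count for all 9 libraries, and values per kb used the longest coding transcript of each gene. No libraries agreed within sampling noise (chi-square per degree of freedom at least 11.6).

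limma 3.58.1 (R 4.3.3) tested each comparison within the table of that pair (trended variance, group only, two-sided) on log2(value + 1), over genes with a mean of at least 10 and with Benjamini-Hochberg adjustment at 0.05. The design named edgeR for raw counts, and the normalised values required limma. edgeR 4.0.16 and DESeq2 1.42.0 on the recovered reads, other scalings, filters and pseudocounts, left-out libraries and a replicate block were alternatives. Applying them to the other gene lists was decided after seeing the data. Shares of all genes called are given only for limma's test as described above. Counts at an unadjusted p or under an alternative have no such share beside them. The test was checked on simulated data.

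The members and lists were chosen with earlier results of these data known. Named were all 10 members and, of each other list of collagens and of collagen assembly genes, the 3 genes with the highest mean among those called in a comparison, except 1 gene that is not reported here. Cell type markers were given as counts and levels per list.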

Additional observations from a re-analysis of the deposited data

How the results depend on the processing

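With each replicate left out in turn, 9 to 10 of the 10 collagens were called higher in injured than in sham arteries, 9 to 10 lower in inhibitor-treated than in injured arteries, and 0 to 1 higher in inhibitor-treated than in sham arteries. Scaling to ribosomal protein genes set the overall median of genes at -0.23, 0.36 and 0.11 in injured over sham, inhibitor-treated over injured and inhibitor-treated over sham arteries, and left 8 and 7 collagens called in the first pair of comparisons. Between inhibitor-treated and sham arteries, 1 collagen (Col5a3) was called higher under ribosomal protein scaling, without the 3 libraries that stand apart, with DESeq2 and in the authors' deposited table, and the cause was not tested. In the same comparison the sign of Col1a2 turned to 0.0683 and that of Col5a2 to 0.1001 under ribosomal protein scaling; leaving out replicates gave -0.093 to 0.023 for Col1a2 and -0.0679 to 0.0375 for Col5a2, none of them called. No member changed direction in the other comparisons under the alternatives run. The replicate block gave 10, 10 and 0 calls in the 3 comparisons, as without it, and changed no member's call. Deviations of same-numbered libraries correlated at -0.17 to 0.39, and 4 of 9 pairs correlated best with their own number. So few pairs cannot show whether same-numbered libraries were paired or processed together. Of the other genes named, Fn1 (adjusted p = 0.0520), Col6a3 (0.0570) and Sparc (0.0823) were not called between injured and sham arteries under the block. Col11a1 was left out by the filter at a mean of 50 in inhibitor-treated against sham arteries.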
